A study of Mus musculus with 15 samples.

Results

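The renin-angiotensin system genes described here are Agt, Ace, Agtr1a, Agtr2, Mas1, Atp6ap2, Enpep and Mme, 8 of the 53337 genes to which transcript values were summed. They were taken by name as parts of a hormone system tied to maternal hypertension, and earlier results of these data were known when they were chosen. The libraries are mRNA-seq of dorsal forebrain from C57BL/6J mouse embryos at embryonic day 18, whose dams carried a subcutaneous osmotic minipump, implanted before breeding, that delivered arginine vasopressin (AVP) or saline, which the labels call vehicle. There were 4 AVP males (libraries 1, 2, 8 and 9), 4 saline males (4, 5, 12 and 13), 3 AVP females (3, 10 and 11) and 4 saline females (6, 7, 14 and 15), and values below are always given in that order within a group. The labels also give each library the number of its column in the deposited table, which is 1 to 8 for libraries 1 to 7 and 13 or above for libraries 8 to 15. What that gap in the numbers stands for is not stated, and some differences are given within libraries 1 to 7 and within libraries 8 to 15. AVP infusion into the dam models preeclampsia by the hormone that the pump delivers, and every embryo, controls included, came from a dam with a pump. The labels give 16 embryos from 8 litters, of which 15 are analysed, and do not say which libraries were litter mates, so p-values measure the spread between these libraries.

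In the classical system, renin cuts angiotensinogen (Agt) to angiotensin I, and angiotensin converting enzyme (Ace) trims that to angiotensin II, which raises blood pressure through the type 1 receptor (Agtr1a and Agtr1b in mice) and is opposed at the type 2 receptor (Agtr2). Aminopeptidase A (Enpep) and neprilysin (Mme) cut angiotensin peptides further, and the heptapeptide angiotensin 1-7 acts at Mas1. In brain, angiotensinogen comes mainly from astrocytes, Ace is rich in choroid plexus and vessel walls, Enpep sits on pericytes, and Agtr2 is a receptor of the fetal brain that declines after birth.

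The Ace locus has 2 promoters, and both are shown because the table lists transcripts that start at each. The first drives the somatic enzyme with its pair of catalytic domains. The second lies 7241 bases downstream, inside intron 12 of the somatic transcript, and is known from testis, where it drives the short germinal enzyme. Each line gives the 250 bases before the start site, on the + strand, from RefSeq (GRCm38.p6). Capitals mark TATAAA and GGGCGG, read on either strand. TGACGTCA was searched as well and was in neither window.
Ace somatic promoter, chr11:105967698-105967947: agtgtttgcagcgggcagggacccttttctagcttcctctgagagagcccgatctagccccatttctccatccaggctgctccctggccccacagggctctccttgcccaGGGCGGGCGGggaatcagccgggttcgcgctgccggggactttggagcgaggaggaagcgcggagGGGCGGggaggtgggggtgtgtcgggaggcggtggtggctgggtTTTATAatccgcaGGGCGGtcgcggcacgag
Ace internal promoter, chr11:105974939-105975188: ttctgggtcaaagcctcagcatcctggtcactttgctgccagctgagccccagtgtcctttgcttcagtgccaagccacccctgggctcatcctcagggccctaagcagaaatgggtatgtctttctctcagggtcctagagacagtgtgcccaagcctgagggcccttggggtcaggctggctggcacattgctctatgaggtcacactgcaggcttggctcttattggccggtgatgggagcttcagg
The somatic window held 4 matches of GGGCGG and 1 of TATAAA on the opposite strand, with 19 CpG dinucleotides and 67.2% G and C. The internal window held 0 exact matches of the 3 motifs, 1 CpG and 58.0% G and C. Only exact letters were searched, and the internal window holds TGAGGTCA, which is 1 letter away from TGACGTCA. Of 32851 mouse promoter windows of the same length, 32.7% held GGGCGG, 12.4% held TATAAA and 1.55% held TGACGTCA, and the median window had 6 CpG. A match is a description of letters, not of a bound factor.

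Values are TPM, which divide by transcript length and by the library total, so they can be compared between genes, but the depth behind a value is unknown. Over the 15 libraries the prorenin receptor gene Atp6ap2 was far above the other members, with a mean of 70.6 ± 7.57 TPM (SD, n = 15), higher than 92.7% of the 32968 genes with any TPM. The mean was 4.28 ± 1.35 TPM for Ace, 3.86 ± 0.76 TPM for Mme and 2.30 ± 0.82 TPM for Enpep. Agtr2 (1.02 ± 0.61 TPM), Agt (0.90 ± 0.56 TPM), Agtr1a (0.65 ± 0.34 TPM) and Mas1 (0.54 ± 0.36 TPM) stood near or under 1 TPM. Atp6ap2 exceeded Ace, and Mme exceeded Enpep, in 15 of 15 libraries, and Enpep exceeded Agtr2 in 12 of 15. Ace exceeded Mme in 9 of 15 libraries, and neighbours among the 4 lowest members were in that order in 9 to 11 of 15, so those neighbours did not differ beyond their spread.

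**Figure D1:**
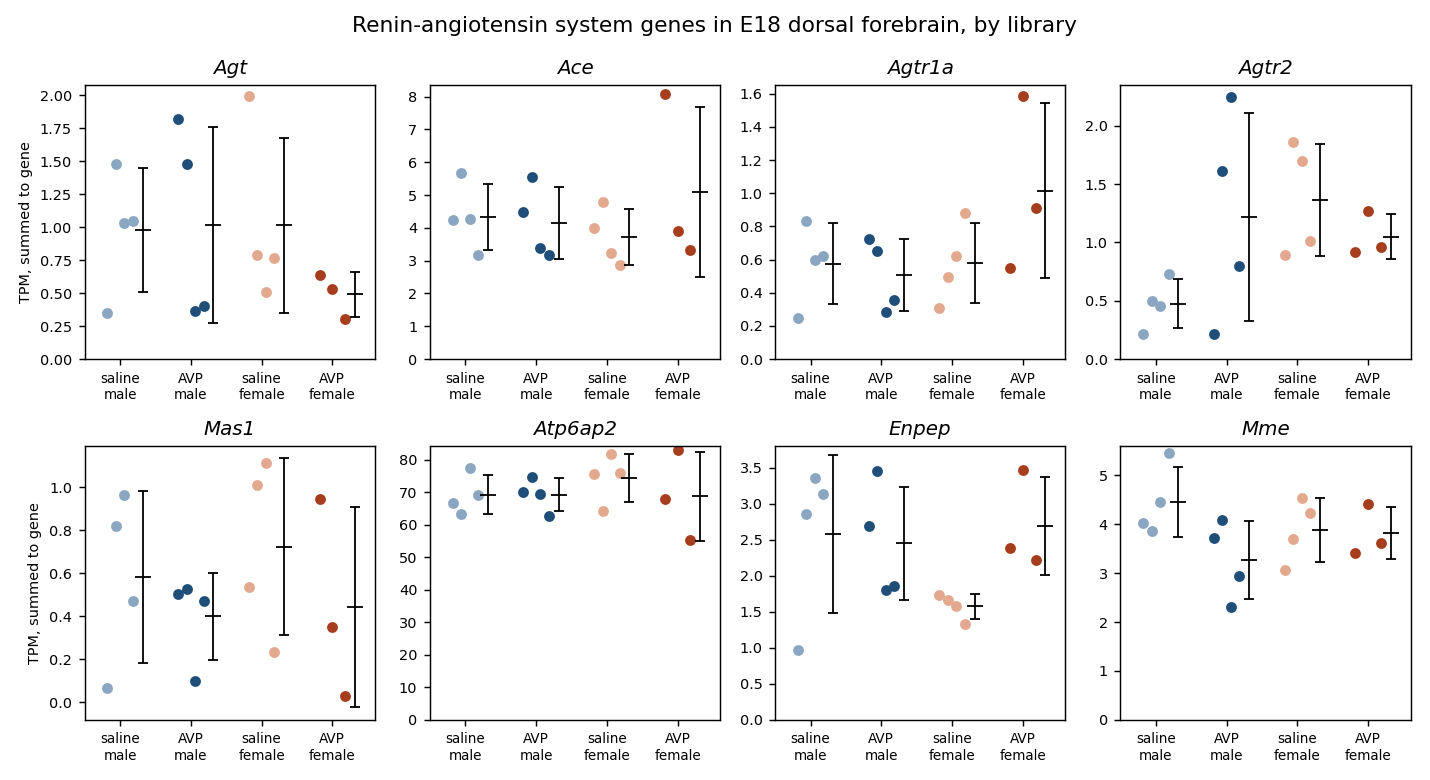
TPM summed to the gene (vertical axis, each panel with its own scale) for the 8 members in each library, by treatment and sex. Points are libraries and black bars are mean ± SD. In Enpep the 3 AVP females, at 2.23 to 3.48 TPM, lie above the 4 saline females, at 1.33 to 1.73 TPM, and groups overlap in the other panels within each sex.

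Genes entered a test when 50% or more of its libraries reached 1 TPM. AVP and saline were compared within each sex with limma on log2(TPM + 0.5), a scale that understates the change of low genes, and the threshold was a Benjamini-Hochberg adjusted p of 0.05 over all genes tested. Of the 8 members, 5 were tested in males, 5 in females and 4 over both sexes, and 0 passed the threshold in any comparison. Over all genes, 0.00655% passed in males (1 of 15271), 0% in females (0 of 15132) and 0% for the interaction of treatment and sex, for AVP over both sexes and for females against males. At an unadjusted p under 0.05 there were 2057 genes in males, 683 in females, 624 for the interaction, 1564 over both sexes and 210 between the sexes. Against those shares a count of 0 among the members says little, and what follows describes levels and their spread. The median difference of all genes was -0.10 in males and -0.05 in females. Among the members tested, 1 was higher and 4 were lower with AVP in males (median -0.04), and 2 were higher and 3 lower in females (median -0.01). With quantile normalization or median-of-ratios scaling, which bring the median of all genes in males to 0.02 and -0.01, the count in males was 4 higher and 1 lower, so the members' directions in males depend on the scaling. In females the count was 2 and 3 with the first and 3 and 2 with the second.

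The dissections differed in content. Dorsal forebrain markers were present throughout, with a summed level of 1150 to 1617 TPM over 10 genes. Ttr, which marks choroid plexus, was at 559 to 2197 TPM in 6 libraries (AVP male 1, saline males 4 and 5, AVP females 3 and 11, saline female 7) and at 1.53 to 24.4 TPM in the other 9. In the library labelled saline male 12, Xist (266 TPM) and the sum of 4 Y-linked genes (0.489 TPM) were in the range of the females. It is kept under its label. Without it the log2 differences in males were 0.00 for Agt, -0.06 for Ace, -0.07 for Agtr1a, 0.67 for Agtr2, -0.03 for Mas1, 0.06 for Atp6ap2, 0.14 for Enpep and -0.41 for Mme, and 0 genes passed the threshold in males and 7 between the sexes, none of them a member. In bulk tissue, fewer cells of a type and less RNA per cell cannot be told apart.

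Agt, which encodes the precursor of all angiotensins (ENSMUSG00000031980, chromosome 8, 124556534 to 124569706, - strand, GRCm38), had 1 annotated transcript and low values. The AVP males had 1.82, 1.48, 0.361 and 0.404 TPM and the saline males 0.346, 1.48, 1.03 and 1.05 TPM. The AVP females had 0.638, 0.534 and 0.305 TPM and the saline females 1.99, 0.788, 0.512 and 0.767 TPM. In each group of males some libraries were above 1 TPM and some at 0.346 to 0.404 TPM, while the AVP females were all low and overlapped the saline females. The log2 difference in males was -0.04 (SE 0.41, adjusted p = 0.975, limma), with an interval from -0.96 to 0.88 (95%). In females Agt was below the filter, and the difference was -0.54 (exact permutation test, two-sided, p = 0.171), and -0.27 without saline female 6. Within males the log2 difference was 0.73 in libraries 1 to 7 and -0.80 in libraries 8 to 15.

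Ace, the converting peptidase (ENSMUSG00000020681, chromosome 11, 105967945 to 105989964, + strand), was measurable in every library. Males with AVP had 4.49, 5.54, 3.38 and 3.17 TPM, and males with saline 4.24, 5.66, 4.26 and 3.17 TPM. Females with AVP had 8.08, 3.91 and 3.32 TPM, and females with saline 4.01, 4.79, 3.23 and 2.88 TPM. The males covered the same range with both treatments, and among the females AVP female 3 stood alone. The log2 difference was -0.06 in males (SE 0.21, adjusted p = 0.915, limma) and 0.33 in females (SE 0.30, adjusted p = 0.999, limma), and -0.02 in females without AVP female 3. That library also had the highest Ttr, 2197 TPM, but AVP female 11, with the next highest Ttr (1348 TPM), had the lowest Ace of the AVP females. Across all groups Ace was at 3.32 to 8.08 TPM (median 4.64 TPM) in the 6 libraries with over 100 TPM of Ttr and at 2.88 to 5.54 TPM (median 3.38 TPM) in the other 9, ranges that overlap. The part of choroid plexus in the values of Ace was not tested. Without the 6 libraries, which leaves 1 AVP female, the difference was 0.08 in males and 0.20 in females.

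Ace was listed as 4 transcripts. The somatic transcript (ENSMUST00000001963, 4906 nt, 25 exons) held 51.7 ± 8.78% of the gene sum (SD, n = 15), at 1.04 to 5.06 TPM. A second coding transcript (ENSMUST00000132280, 3649 nt), which begins between the promoters shown above, held 29.5 ± 8.41%. The germinal transcript (ENSMUST00000001964, 2418 nt), whose annotated start at 105975208 lies just past the internal promoter, was listed in 14 of 15 libraries at up to 1.26 TPM, with saline male 4 at 0, and held 16.6 ± 9.46%. It differs from the other Ace transcripts in 196 exonic bases only, and the second coding transcript in 185. Both shares thus rest on how the estimator divides reads of shared exons. The germinal share was 14.7 ± 6.59% in AVP males (n = 4), 8.89 ± 6.09% in saline males (n = 4), 21.5 ± 12.7% in AVP females (n = 3) and 22.7 ± 8.54% in saline females (n = 4). Those ranges overlapped between treatments in both sexes. In the level of the germinal transcript the log2 difference was 0.30 in males (exact two-sided permutation p = 0.40) and 0.13 in females (exact p = 0.686). The last, ENSMUST00000151657, without a coding annotation, reached 1.18 TPM in saline male 4 and was at or near 0 elsewhere.

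**Figure D2:**
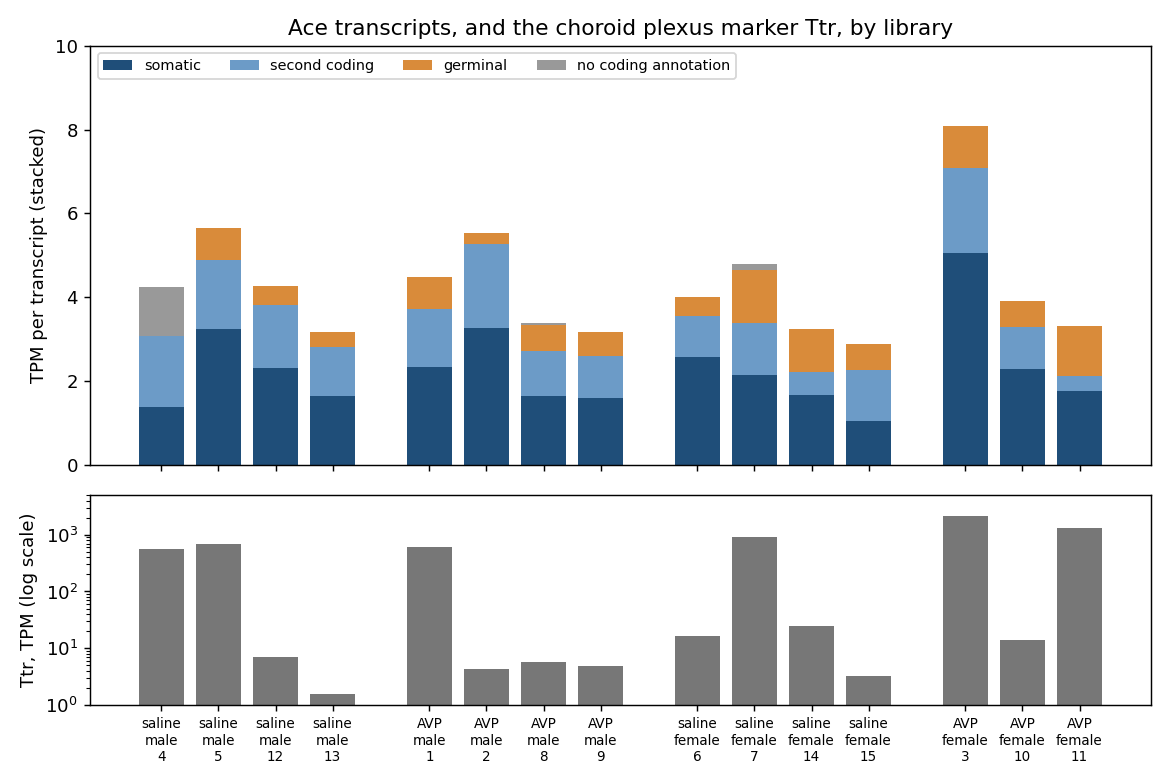
Upper panel, TPM of the 4 Ace transcripts stacked for each library. Lower panel, TPM of the choroid plexus marker Ttr on a log scale in the same libraries. AVP female 3 is highest in both panels (8.08 TPM of Ace, 2197 TPM of Ttr). AVP female 11, next highest in Ttr (1348 TPM), is lowest in Ace among the AVP females (3.32 TPM). The germinal transcript, which starts at the internal promoter, is at most 35.9% of a bar.

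The 3 receptor genes had low levels, with means above those of 47.6% (Mas1), 49.2% (Agtr1a) and 52.9% (Agtr2) of the genes with any TPM. Agtr1a (ENSMUSG00000049115, chromosome 13, 30336441 to 30382867, + strand), the type 1 receptor that carries the pressor response, passed 1 TPM in only 1 of 15 libraries. Among males, levels were 0.727, 0.654, 0.286 and 0.357 TPM under AVP and 0.249, 0.836, 0.599 and 0.621 TPM under saline. Among females, levels were 0.546, 1.59 and 0.912 TPM under AVP and 0.308, 0.495, 0.624 and 0.884 TPM under saline. AVP females 10 and 11 were above every saline female and AVP female 3 was not, so the groups overlapped. The log2 difference was -0.09 in males (exact two-sided permutation p = 0.771) and 0.46 in females (exact p = 0.200). In females it was 0.20 without AVP female 10 and 0.70 without AVP female 3. Agtr1b, the other type 1 receptor gene of mice, was at most 0.187 TPM, and was at 0, 0.0302 and 0 TPM in the AVP females.

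Agtr2, the X-linked type 2 receptor gene (ENSMUSG00000068122, chromosome X, 21484544 to 21489164, + strand), gave sums of 0.211, 1.61, 2.25 and 0.802 TPM in AVP males and 0.214, 0.497, 0.453 and 0.728 TPM in saline males. The sums were 0.918, 1.27 and 0.963 TPM in the AVP females and 0.888, 1.86, 1.69 and 1.01 TPM in the saline females. AVP males 2, 8 and 9 were above every saline male, and the females overlapped. The log2 difference of the sums was 0.67 in males, where the gene was below the filter (exact two-sided permutation p = 0.229), and -0.24 in females (SE 0.27, adjusted p = 0.999, limma). It was 0.39 in males without AVP male 8 and 1.04 without AVP male 1, and in females -0.11 without saline female 7. Without the 6 libraries over 100 TPM of Ttr, which leaves AVP female 10 as the only AVP female, it was 0.09 in females. The median of all genes there was 0.15. Much of this spread came from ENSMUST00000131150, a transcript of 314 nt without a coding annotation that was listed in 5 libraries at 0.335 to 1.59 TPM and at 0 in the other 10. The coding transcript (ENSMUST00000089188) alone gave 0.918, 1.27 and 0.963 TPM in AVP females and 0.553, 0.512, 0.452 and 1.01 TPM in saline females. In that transcript the direction in females turned, to a log2 difference of 0.47 (exact p = 0.114), and the difference in males was 0.15 (exact p = 0.600). The direction of Agtr2 in females thus depends on whether the short transcript is summed in.

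Mas1 (ENSMUSG00000068037, chromosome 17, 12841079 to 12868143, - strand), the receptor of angiotensin 1-7, had 0.506, 0.525, 0.10 and 0.470 TPM in AVP males and 0.0687, 0.821, 0.963 and 0.472 TPM in saline males. The AVP females had 0.946, 0.350 and 0.0302 TPM and the saline females 0.534, 1.01, 1.11 and 0.235 TPM. The groups overlapped widely, and values within a group differed more than those between groups. The sum was spread over 9 annotated transcripts, of which ENSMUST00000167152 (1670 nt) held 37.0% and the longest (2401 nt) 3.56%. Log2 differences were -0.21 in males (exact two-sided permutation p = 0.600) and -0.43 in females (exact p = 0.429). They turned on single libraries, with -0.02 in males without AVP male 8, and in females -0.07 without AVP female 11 and -0.80 without AVP female 3.

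Atp6ap2 (ENSMUSG00000031007, chromosome X, 12587801 to 12617049, + strand) encodes the prorenin receptor, which is also an accessory subunit of the proton-pumping V-ATPase of lysosomes and vesicles. The AVP males had 70.1, 74.9, 69.7 and 62.9 TPM and the saline males 66.8, 63.5, 77.5 and 69.3 TPM. Females with AVP had 68.0, 83.0 and 55.5 TPM, and females with saline 75.7, 64.2, 81.7 and 76.0 TPM. Both the highest and the lowest value of the series were in AVP females, and the groups overlapped. This was the member measured most tightly: the log2 difference in males was 0.00 (SE 0.08, adjusted p = 0.990, limma), with a 95% interval from -0.18 to 0.19. In females it was -0.13 (SE 0.15, adjusted p = 0.999, limma), with an interval from -0.46 to 0.21, and 0.02 without AVP female 11. The coding transcript ENSMUST00000033313 held 99.9% of the sum.

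Beside it, 17 genes of the V-ATPase were described, none of which passed the threshold in either sex. In males 10 were higher and 7 lower with AVP, with a median log2 difference of 0.00. For all genes tested in males the median was -0.10, and 26.4% were higher. In females 1 V-ATPase gene was higher and 16 were lower, with a median of -0.11. For all genes tested in females the median was -0.05, and 36.9% were higher. An unadjusted limma p under 0.05 was reached by 3 of the 17 in males, beside 13.5% of all genes tested. In females it was reached by 1 of the 17, beside 4.51%. Atp6ap1 and Atp6v0a2 were lower without overlap in males, as were 6.54% of all genes. Atp6v0e2 and Atp6v1d were so in females, as were 2.77% of all genes. The most negative of the 17 in females were Atp6v0e2 (-0.24, unadjusted p = 0.0407, limma), an e subunit of the membrane sector, and Atp6v1g2 (-0.23, unadjusted p = 0.323, limma), a neuronal G subunit.

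Enpep, aminopeptidase A (ENSMUSG00000028024, chromosome 3, 129269175 to 129332720, - strand), removes the first residue of angiotensin II. Among females, levels were 2.38, 3.48 and 2.23 TPM under AVP and 1.73, 1.67, 1.58 and 1.33 TPM under saline. Males with AVP had 2.70, 3.46, 1.81 and 1.85 TPM, and males with saline 0.966, 2.86, 3.35 and 3.14 TPM. In females each AVP library was above each saline library, and the saline females were tightly grouped. In males the groups overlapped fully, and saline male 4 was the lowest library of all. Enpep was the only member whose AVP and saline libraries did not overlap in at least 1 sex. Over all genes tested, 2.78% were higher and 2.77% lower without overlap in females, and in males 0.733% were higher and 6.54% lower, so the count of 1 among the 5 members tested in females is read beside that background.

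The log2 difference of Enpep in females was 0.61 (SE 0.21), with a 95% interval from 0.12 to 1.09, an unadjusted limma p of 0.0206 and an adjusted p of 0.999. It ranked 277 by p among 15132 genes, and the exact two-sided permutation p of 0.0286 is the smallest that 4 against 3 libraries can give. It was 0.44 without AVP female 10. In males it was 0.00 (SE 0.33, adjusted p = 0.999, limma), and 0.14 without the library labelled saline male 12. Within libraries 1 to 7 and within 8 to 15 the difference was 0.39 and 0.76 in females, with 1 AVP library in the first, and 0.68 and -0.68 in males. The interaction of treatment and sex was 0.61 (SE 0.42, adjusted p = 0.896, limma), so a difference between the sexes was not shown, and it was 0.47 without the library labelled saline male 12. The full-length coding transcript (ENSMUST00000029658), with 84.0% of the sum, gave 2.14, 3.35 and 1.95 TPM in AVP females and 1.73, 0.953, 1.48 and 1.03 TPM in saline females (exact two-sided permutation p = 0.0571).

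**Figure D3:**
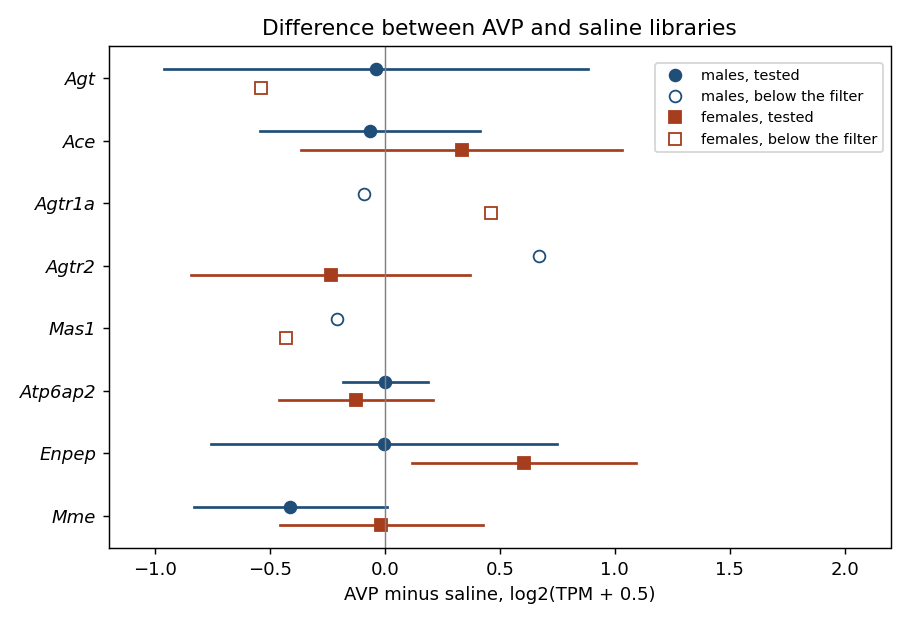
Difference between AVP and saline in log2(TPM + 0.5) (horizontal axis) for each member in males (circles) and females (squares). Filled symbols with 95% confidence intervals were tested with limma, and open symbols were below the filter of 1 TPM. The interval of Enpep in females (0.12 to 1.09) is the only one that does not include 0, and no member passed the adjusted threshold.

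Markers of several other cell types stood higher in AVP females, as Enpep did, and none of them passed the adjusted threshold. Over all genes tested in females, 36.9% were higher with AVP. The summed level of 8 meningeal fibroblast markers, among them Dcn, Col1a1 and Igf2, was 336 to 458 TPM in AVP females and 178 to 237 TPM in saline females, and 8 of 8 markers were higher with AVP (median log2 difference 0.88). The summed level of 8 mural markers, which include the pericyte genes Rgs5, Kcnj8 and Pdgfrb, was 161 to 171 TPM with AVP and 113 to 143 TPM with saline, and 7 of 8 were higher (median 0.24). For endothelium the sums were 201.3 to 209.9 TPM and 125 to 189 TPM, and 7 of 8 markers were higher (median 0.35). No marker of the meningeal or mural lists was at 0 in any library. Of the red blood cell genes, 5 of 5 tested were higher (median 1.04), with sums of 5129 to 13657 TPM against 2241 to 5707 TPM. Choroid plexus markers differed most, with 6 of 6 tested higher (median 1.52). Their sums over 10 genes were 28.6 to 2287 TPM against 9.21 to 964 TPM. Only 6 of the 10 listed choroid plexus markers passed the filter in females, and the filter depends on levels in the libraries compared. Ttr was over 100 TPM in 2 AVP females and 1 saline female. The count and median of the choroid plexus list thus rest partly on which markers the filter kept. Microglia markers were higher in 6 of 6 (median 0.18), with sums of 33.5 to 40.5 TPM against 21.5 to 42.2 TPM. Of the thalamus list, 4 of 5 genes tested were higher (median 0.24). Most of that list's level was Lhx2, at 98.3 to 167 TPM within sums of 120 to 206 TPM over the 15 libraries. Gbx2, Tcf7l2, Lhx9 and Rora had medians of only 0.0731, 1.57, 1.17 and 1.19 TPM. Dorsal forebrain markers were higher in 8 of 10 (median 0.02) and radial glia markers in 5 of 8 (median 0.07). None of the 9 striatal markers (median -0.64) and none of the 8 interneuron markers (median -0.23) was higher. In males 26.4% of all genes tested were higher. There 8 of 8 meningeal fibroblast (median 0.16), 1 of 8 mural (-0.13) and 1 of 8 endothelial markers (-0.20) were higher. Red blood cell genes were higher in 5 of 5 tested (0.30), choroid plexus markers in 0 of 4 tested (-0.32) and microglia markers in 1 of 6 (-0.15). Higher too were 5 of 8 radial glia (0.05), 1 of 10 dorsal forebrain (-0.10), 4 of 9 striatal (-0.02) and 3 of 8 interneuron markers (-0.05). The part of these cells in the values of Enpep was not tested.

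**Figure D4:**
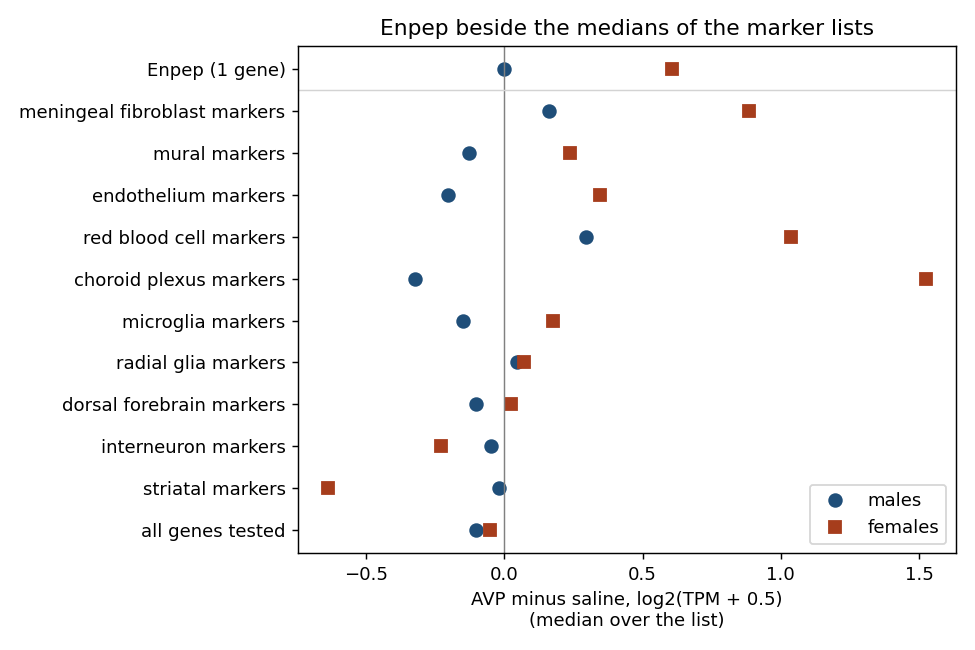
Difference between AVP and saline in log2(TPM + 0.5) for Enpep (top line) and the median difference of each of 10 marker lists and of all genes tested, in males (circles) and females (squares). In females Enpep (0.61) lies on the side of the choroid plexus (1.52), red blood cell (1.04), meningeal fibroblast (0.88), endothelial (0.35) and mural (0.24) markers. The microglia (0.18), radial glia (0.07) and dorsal forebrain (0.02) medians lie on that side as well. Medians cover only markers that passed the filter, 6 of 10 for choroid plexus in females. In males Enpep is at 0.00, with the red blood cell (0.30), meningeal fibroblast (0.16) and radial glia (0.05) medians above it and those of the other lists below.

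Mme, neprilysin (ENSMUSG00000027820, chromosome 3, 63241537 to 63386030, + strand), cuts angiotensin I to angiotensin 1-7 and degrades many other peptides, amyloid beta among them. Among males, levels were 3.73, 4.08, 2.31 and 2.94 TPM under AVP and 4.03, 3.87, 4.47 and 5.45 TPM under saline. The AVP females had 3.42, 4.42 and 3.63 TPM and the saline females 3.06, 3.70, 4.54 and 4.23 TPM. AVP males 1, 8 and 9 were below every saline male, AVP male 2 was not, and the females overlapped fully. The log2 difference in males was -0.41 (SE 0.19), with a 95% interval from -0.83 to 0.01, an unadjusted limma p of 0.0553 and an adjusted p of 0.377, against -0.10 for the median gene. The exact two-sided permutation p was 0.0857. The difference was -0.02 in libraries 1 to 7 and -0.80 in libraries 8 to 15, -0.28 without AVP male 8, and -0.41 without the library labelled saline male 12. In females it was -0.01 (SE 0.19, adjusted p = 0.999, limma), and the interaction was 0.40 (SE 0.26, adjusted p = 0.896, limma). Of 8 annotated transcripts, the 3 largest held 45.1%, 25.0% and 19.8% of the sum, and the last of these was a partial coding transcript of 921 nt.

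Over both sexes, with sex as a term, the log2 difference with AVP was 0.12 for Ace, -0.06 for Atp6ap2, 0.28 for Enpep and -0.23 for Mme, with adjusted p-values from 0.512 to 0.807 (limma). With 15 libraries from 8 litters, fits over both sexes hold litter mates, as do those of the interaction and of females against males. The labels do not link them, so litter was not in the fits and their p-values treat litter mates as independent. Between females and males, with treatment as a term, the 4 members tested differed by -0.01 (Ace), 0.04 (Atp6ap2), -0.20 (Enpep) and 0.00 (Mme), each with an adjusted p of 1 (limma). The interval for the X-linked Atp6ap2 ran from -0.13 to 0.22. Without the library labelled saline male 12 those differences were 0.01, 0.06, -0.10 and 0.02.

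The other genes of the pathway were 21, of which 11 were tested in each sex and 0 passed the threshold. In males 3 were higher and 8 lower with AVP (median log2 difference -0.15), and in females 5 were higher and 6 lower (median -0.03). The 10 below the filter include the gene of renin, which opens the classical axis, and those of aldosterone synthesis. Ace, the member that makes angiotensin II, was above the filter. Ren1, renin itself, was at 0 in 5 libraries and at most 0.129 TPM. The chymase gene Cma1 reached 1.43 TPM, Mcpt4 0.474 TPM and the cathepsin G gene Ctsg 0.346 TPM. The receptor gene Mrgprd was above 0 in 1 library only. Of the aldosterone genes, the synthase gene Cyp11b2 was listed at 0 in 15 of 15 libraries, Cyp11b1 was at most 0.0367 TPM, and Hsd11b2, which inactivates glucocorticoids ahead of the mineralocorticoid receptor, was at 0.0770 to 0.389 TPM.

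The 5 most abundant pathway genes were 4 peptidases of wide substrate range and Mtus1 (39.0 TPM), whose protein binds the type 2 receptor. Mean levels of the peptidases over the 15 libraries were 44.7 TPM for Rnpep (aminopeptidase B), 42.1 TPM for Thop1 (thimet oligopeptidase), 39.1 TPM for Dpp3, which degrades angiotensin II from its amino end, and 32.5 TPM for Nln (neurolysin). Nln cuts angiotensins, neurotensin and bradykinin, and it was lower in each AVP library than in each saline library of the same sex. The AVP males had 29.1, 30.7, 31.5 and 29.8 TPM and the saline males 39.0, 35.1, 37.6 and 34.9 TPM. Females with AVP had 31.5, 30.2 and 21.4 TPM, and females with saline 36.3, 33.7, 34.0 and 32.6 TPM. Of all genes tested, 6.54% were lower in this way in males and 2.77% in females. Of the 14884 genes tested in both sexes, 17 (0.114%) were lower in this way in both.

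The log2 difference of Nln was -0.27 in males (SE 0.07, unadjusted p = 0.00316, adjusted p = 0.304, limma), -0.31 in females (SE 0.15, adjusted p = 0.999, limma) and -0.29 over both sexes (SE 0.07, unadjusted p = 0.00115, adjusted p = 0.462, limma), where it ranked 26 by p among 15078 genes. The difference was -0.14 in females without AVP female 11 and -0.26 in males without the library labelled saline male 12. The exact two-sided permutation p for Nln was 0.0286 in each sex, the smallest either design allows. Within libraries 1 to 7 and within 8 to 15 it was -0.30 and -0.24 in males and -0.15 and -0.38 in females. Scaling by the median of ratios, which brings the median of all genes in males from -0.10 to -0.01, left -0.17 in males and -0.22 over both sexes. Nln was chosen for this detail after its values were seen, and its fit over both sexes did not account for litter mates.

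Thop1, a close relative of Nln that cuts angiotensin I to angiotensin 1-7, had 39.0, 35.1, 37.6 and 40.0 TPM in AVP males and 50.4, 44.8, 47.6 and 41.3 TPM in saline males, without overlap. Of all genes tested in males, 6.54% were lower in this way. For Thop1 the AVP females had 33.8, 46.3 and 33.1 TPM and the saline females 44.5, 53.8, 38.7 and 45.3 TPM, with AVP female 10 among the saline values. The log2 difference was -0.27 in males (SE 0.08, adjusted p = 0.304, limma) and -0.28 in females (SE 0.16, adjusted p = 0.999, limma). Without the 6 libraries over 100 TPM of Ttr, which leaves AVP female 10 as the only AVP female, the direction in females turned. The difference was then 0.12, where the median of all genes was 0.15. Without 1 library the difference in females was -0.43 (AVP female 10) to -0.19 (AVP female 11). Over coding transcripts alone it was -0.08 in males and -0.19 in females. Rnpep differed by -0.19 in males and -0.25 in females, and by -0.22 over both sexes (unadjusted p = 0.0126, adjusted p = 0.462, limma).

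None of the remaining pathway genes passed the adjusted test in either sex. Prcp, a carboxypeptidase of angiotensin II, was at 8.41 to 10.6 TPM in AVP males and 8.93 to 13.8 TPM in saline males, and at 11.6 to 14.1 TPM in AVP females and 8.32 to 11.8 TPM in saline females. Its interaction of treatment and sex was 0.59 (SE 0.21, unadjusted p = 0.0140, adjusted p = 0.896, limma). Agtrap, whose protein draws the type 1 receptor inside the cell, was at 2.42 to 2.91 TPM in AVP females and 1.69 to 2.38 TPM in saline females, without overlap (log2 difference 0.30, adjusted p = 0.999, limma), and was at 1.47 to 2.84 TPM and 1.31 to 4.04 TPM in males. Of all genes tested in females, 2.78% were higher without overlap. Nr3c2, the mineralocorticoid receptor gene, was at 1.77 to 3.11 TPM in AVP females and 2.47 to 6.07 TPM in saline females (log2 difference -0.59, adjusted p = 0.999, limma). Anpep, Dpp3, Lnpep, Mtus1 and Prep had adjusted p-values of 0.555 or more in males and 0.999 in females (limma).

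**Figure D5:**
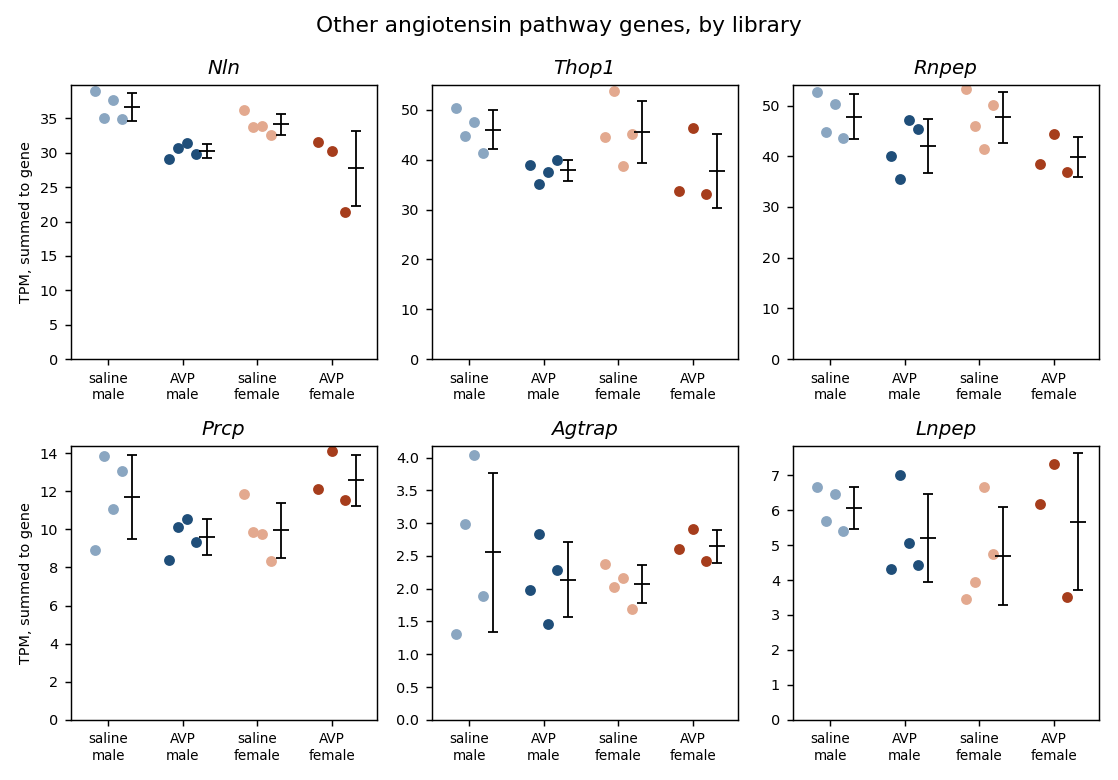
TPM summed to the gene (vertical axis, from 0) for 6 other pathway genes in each library, by treatment and sex. Points are libraries and black bars are mean ± SD. Nln is lower in each AVP library than in each saline library of its sex (29.1 to 31.5 against 34.9 to 39.0 TPM in males), and the other panels overlap in at least 1 sex.

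The genes whose values followed those of a member most closely were found by Pearson correlation of log2(TPM + 0.5), centred within each group, over the 15 libraries and 15077 other genes, as a description of libraries that share their tissue content. For Ace they were Nudt18 (r = 0.94), Phf13 (0.92) and the lysosomal protease gene Ctsd (0.91). For Atp6ap2 they included B4galt6 (0.96) and Rnf152 (0.95). For Enpep they were Il10rb (0.94), a subunit of interleukin 10 family receptors, Gm27527 (0.93) and Itgbl1 (0.92). For Mme they were Gm11847 (0.87), Ttc8 (0.86), a gene of the cilium, and C330018D20Rik (0.81).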

How the data were processed

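The authors trimmed stranded paired-end reads of E18 dorsal forebrain with Trim Galore 0.4.1 and quantified GENCODE M16 transcripts (GRCm38) with kallisto 0.43.1, per the labels and the study's methods. The deposited table holds TPM for 133849 transcripts in 15 libraries, 1 AVP female having been left out by the authors as an outlier. TPM carry no counts, so depth is unknown and no counting interval was given.

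TPM were summed to 53337 genes with GENCODE M21 (404 transcripts, 0.154% to 0.199% of TPM, had no gene). Genes with at least 1 TPM in 50% of a fit's libraries were taken to log2(TPM + 0.5) and tested by limma 3.58.1 (R 4.3.3, mean-variance trend, two-sided, Benjamini-Hochberg), within each sex, for the interaction, and over all libraries. The fits were tested on simulated data. Exact permutation tests over libraries covered single genes. Alternatives are in the closing section. Named genes were the members and a fixed pathway list, with 3 most alike genes per tested member. Of these, 1 pathway gene and 1 most alike gene are not reported here. The members and lists were chosen with earlier results of these data known. Figures used matplotlib 3.10.9.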

Additional observations from a re-analysis of the deposited data

Results flagged for a closer look

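In 57 groups of 4 libraries (members and tested pathway genes), 2 held a library whose gap to its nearest neighbour took up most of the group's range by Dixon's criterion, against about 2.85 by chance at 1 in 20. Mas1 was at 0.10 TPM in AVP male 8, with 0.470 to 0.525 TPM in the other AVP males. Anpep, aminopeptidase N, was at 2.22 TPM in saline male 4, with 8.07 to 8.89 TPM in the other saline males. Without saline male 4 the log2 difference of Anpep in males was -0.02 in place of 0.41.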

How the results depend on the processing

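Each fit was repeated with other settings. The pathway genes checked in them were the 11 tested within each sex, Prcp and Nln in the interaction, and Nln, Thop1 and Rnpep over both sexes. Without the 6 libraries over 100 TPM of Ttr, only Nln and Thop1 were checked among them. No member and none of the pathway genes checked passed the threshold in any setting. The count of all genes past it in males was 1, and it was 0 with a pseudocount of 1, 5 TPM in every library, column-number range as a covariate, coding transcripts only or 1 fit of 15 libraries, 2 without the trend, and 0 to 6 leaving out 1 library. That range was 0 to 6 in females, 0 to 1 for the interaction, 0 to 1 over both sexes and 0 to 7 between the sexes, where an adjusted p of 0.1 gave 1. Without the 6 libraries over 100 TPM of Ttr, a setting chosen after seeing the data that leaves 1 AVP female, assumed to vary like the others, the count was 0 in males and 1 between the sexes. No paired analysis was possible because the groups share no replicate numbers.

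Some differences changed sign under other settings, and the cause was not tested. On the log2 scale, quantile normalization gave in males 0.11 for Agt, 0.089 for Ace, 0.16 for Enpep, 0.12 for Prep and 0.0070 for Agtrap, in females 0.031 for Mtus1, over both sexes 0.034 for Atp6ap2 and between the sexes -0.0039 for Mme. Median-of-ratios scaling gave in males 0.031 for Agt, 0.031 for Ace, 0.084 for Enpep and 0.072 for Prep, in females 0.017 for Mme and 0.0042 for Mtus1, and over both sexes 0.016 for Atp6ap2. A pseudocount of 0.1 gave 0.018 for Enpep in males. Coding transcripts alone gave in males 0.037 for Ace, 0.31 for Enpep and 0.031 for Agtrap, and 0.044 for Ace between the sexes. Column-number range as a covariate gave 0.034 for Ace and -0.0030 for Mme between the sexes. Without the 6 libraries, Ace was 0.077 and Atp6ap2 -0.087 in males, Agtr2 0.088, Atp6ap2 0.094, Mme 0.16 and Thop1 0.12 in females, Atp6ap2 0.18 and Nln 0.062 in the interaction, and Mme -0.0064 between the sexes.

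Leaving out 1 library at a time, differences in males ran from -0.29 to 0.19 for Agt, -0.20 to 0.062 for Ace, -0.037 to 0.058 for Atp6ap2, -0.33 to 0.14 for Enpep, -0.021 to 0.72 for Anpep, -0.016 to 0.063 for Dpp3, -0.37 to 0.070 for Agtrap and -0.074 to 0.55 for Nr3c2. In females they ran from -0.020 to 0.56 for Ace, -0.27 to 0.019 for Atp6ap2, -0.11 to 0.057 for Mme, -0.056 to 0.11 for Dpp3 and -0.16 to 0.033 for Mtus1. The interaction ran from -0.27 to 0.016 for Atp6ap2 and -0.14 to 0.13 for Nln. Over both sexes the range was -0.046 to 0.20 for Ace and -0.11 to 0.0096 for Atp6ap2, and between the sexes -0.17 to 0.070 for Ace, -0.066 to 0.067 for Mme and -0.0084 to 0.11 for Atp6ap2.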
